A study of Mus musculus with 9 samples.

Results

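The E2F transcription factors and the retinoblastoma (pocket) proteins decide whether the genes of DNA replication are read. Here the 10 genes E2f1, E2f2, E2f3, E2f4, E2f5, E2f7, E2f8, Rb1, Rbl1 and Rbl2 were followed by their rows among the 48709 genes of a deposited TPM table, and all 10 were found. They were measured in 9 RNA-seq libraries of mouse CD8+ T cells, in 3 groups of 3 labelled OVA/Citra (OVA peptide plus citraconate), OVA (OVA peptide alone) and CTRL (no OVA peptide). The peptide comes from ovalbumin, the egg white protein that serves widely as a test antigen. Citraconate is a dicarboxylate and an isomer of itaconate. No group received citraconate without peptide. The sources used here name no strain, age, dose or time, and do not say whether replicates were separate cultures or animals. The spread behind each p-value is that between libraries and could be technical.

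In resting cells, pocket proteins sit on E2F proteins at the promoters of cell cycle genes and keep them silent. Cyclin-dependent kinases phosphorylate the pocket proteins, the E2F proteins are freed, and entry into S phase follows. E2F1, E2F2 and E2F3 are the activators, which RB1 holds in check. E2F4 and E2F5 work mainly with the pocket proteins p107 (encoded by Rbl1) and p130 (encoded by Rbl2), and p130 with E2F4 forms the DREAM complex of non-dividing cells. E2F7 and E2F8 are atypical members that bind DNA without a DP partner or a pocket protein and repress E2F target genes late in the cycle. In T cells this network governs the burst of division after antigen, and mouse studies have described E2F2 as a brake on T cell proliferation.

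Several of these genes are themselves E2F targets, so their promoters are shown with the letters of 2 motifs in capitals. The E2F motif was searched as its 4 octamers TTTCCCGC, TTTCGCGC, TTTGCCGC and TTTGGCGC, and the cell cycle homology region (CHR), which the DREAM complex reads, as TTTGAA, both on either strand. Windows of 300 bases, 250 before and 50 after the annotated start, came from RefSeq (GRCm38.p6), where 7 of the 10 genes matched, with 9 windows. E2f4, E2f5 and Rb1 had no entry. The values themselves came from a table whose notes name another mouse build, GRCm39. The first 3 stretches hold an E2F octamer ahead of the start, those of E2f8 and Rbl2 hold a CHR and no octamer, and the last shows the only match found past a start. All are written 5′ to 3′ on the strand of the gene.
Rbl1, chr2:157204535-157204784, minus strand: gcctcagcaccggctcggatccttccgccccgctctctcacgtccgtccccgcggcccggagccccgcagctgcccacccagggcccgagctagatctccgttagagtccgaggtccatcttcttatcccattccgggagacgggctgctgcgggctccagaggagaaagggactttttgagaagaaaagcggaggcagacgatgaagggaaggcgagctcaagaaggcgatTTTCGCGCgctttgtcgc
E2f3, chr13:29986064-29986313, minus strand: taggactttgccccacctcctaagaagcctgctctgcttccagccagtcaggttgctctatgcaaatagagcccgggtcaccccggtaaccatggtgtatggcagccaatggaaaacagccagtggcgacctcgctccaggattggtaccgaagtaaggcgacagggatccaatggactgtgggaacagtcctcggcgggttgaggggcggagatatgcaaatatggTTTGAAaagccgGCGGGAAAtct
E2f7, chr10:110745189-110745438, plus strand: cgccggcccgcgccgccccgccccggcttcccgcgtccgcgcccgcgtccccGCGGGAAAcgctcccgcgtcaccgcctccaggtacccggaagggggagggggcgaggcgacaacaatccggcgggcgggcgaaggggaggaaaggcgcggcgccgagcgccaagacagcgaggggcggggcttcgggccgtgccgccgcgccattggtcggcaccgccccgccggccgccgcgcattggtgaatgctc
E2f8, chr7:48881597-48881846, minus strand: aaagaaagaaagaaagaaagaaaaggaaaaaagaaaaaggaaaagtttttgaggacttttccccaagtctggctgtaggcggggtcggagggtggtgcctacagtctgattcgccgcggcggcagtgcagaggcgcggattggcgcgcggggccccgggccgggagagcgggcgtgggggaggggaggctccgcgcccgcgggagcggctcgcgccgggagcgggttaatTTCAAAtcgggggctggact
Rbl2, chr8:91069807-91070056, plus strand: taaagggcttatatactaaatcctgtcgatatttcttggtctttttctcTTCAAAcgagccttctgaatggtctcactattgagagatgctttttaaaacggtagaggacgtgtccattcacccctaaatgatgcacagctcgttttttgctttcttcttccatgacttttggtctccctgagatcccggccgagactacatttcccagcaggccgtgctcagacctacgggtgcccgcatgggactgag
E2f2, chr4:136172294-136172323, plus strand: cgaatttggcggcatatagTTTGGCGCtaa

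The octamer began 18 bases before the start in Rbl1, 11 before it in the upstream window of E2f3, 198 before it in E2f7 and 40 after it in the upstream window of E2f2. Of the 9 windows 4 held an octamer (44.4%), against 744 of 32851 windows of all genes (2.26%) and 18 of 45 windows of the G1/S genes listed further on (40.0%). The CHR was found 20 bases before the start of E2f8, 23 before that of E2f3 and 201 before that of Rbl2, and in the downstream window of E2f2. It was in 4 of the 9 windows (44.4%), in 17.9% of all windows and in 21 of 28 windows of G2/M genes (75.0%). The motifs do not overlap in the stretches shown. The E2f1 window lies partly in annotated coding sequence (188 of its bases), so its lack of a match describes that window and not the main promoter. The downstream window of E2f2, whose CHR is counted above, also lies partly in coding sequence (46 of its bases). A match is a run of letters and not a site shown to be bound.

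The libraries held 14754470 to 17384330 reads assigned to genes, worked back from the table, and a member had between 89 reads (E2f5) and 4011 reads (E2f4) in a library. Markers of the labelled cell type were present: Cd8a was at 280 to 348 TPM in OVA/Citra, 103 to 177 TPM in OVA and 211 to 224 TPM in CTRL, while Cd4 stayed at or under 3.11 TPM. Cd8b1, the other CD8 chain, was at 311 to 368 TPM in OVA/Citra, 126 to 221 TPM in OVA and 584 to 610 TPM in CTRL. Both chains were lowest in OVA, but only Cd8a was higher in OVA/Citra than in CTRL. Markers of T cells and of several other cell types moved with the groups. The summed level of 13 T cell markers was 4998 to 5686 TPM in OVA/Citra, 1716 to 2965 TPM in OVA and 6451 to 6794 TPM in CTRL. That of 10 natural killer markers was 718 to 878 TPM in OVA/Citra, 1872 to 2748 TPM in OVA and 216 to 254 TPM in CTRL. These 10 did not all move alike. Fcer1g averaged 134 TPM in OVA/Citra, 933 TPM in OVA and 2.97 TPM in CTRL, and Tyrobp 129.5, 789 and 0.864 TPM. Klrd1, most of the CTRL sum, averaged 335 TPM in OVA/Citra, 157 TPM in OVA and 211 TPM in CTRL. With citraconate 8 of the 10 were lower than in OVA (21.2% of all genes were) and 2 higher (37.8%). None of the 13 T cell markers was at 0 in any group, and Ncr1 was the natural killer marker listed at 0 in all CTRL libraries. The summed level of 8 stromal and epithelial markers was 64.9 to 84.6 TPM in OVA/Citra, 264 to 387 TPM in OVA and 44.4 to 48.0 TPM in CTRL, with 1 marker at 0 in OVA/Citra, 3 in OVA and 3 in CTRL. Most of it was Pecam1, an adhesion gene of endothelium and also of leukocytes, at 55.5 ± 12.6 TPM in OVA/Citra, 276 ± 60.9 TPM in OVA and 40.6 ± 1.07 TPM in CTRL (SD, n = 3 each). Epcam, an epithelial adhesion gene, was at 15.2 ± 1.74 TPM in OVA/Citra, 32.4 ± 7.23 TPM in OVA and 2.14 ± 0.621 TPM in CTRL. Both genes had their highest mean in OVA. Krt18, the other marker of the 3 tested, had its lowest mean there. It averaged 0.508 ± 0.387 TPM in OVA/Citra, 0.174 ± 0.214 TPM in OVA and 3.13 ± 0.392 TPM in CTRL. The 5 CD4 and regulatory T cell markers summed to 26.7 to 28.3 TPM in OVA/Citra, 21.8 to 23.9 TPM in OVA and 61.8 to 70.1 TPM in CTRL. B cell markers summed to 1.41 to 2.25 TPM in OVA/Citra, 1.46 to 2.69 TPM in OVA and 13.8 to 15.6 TPM in CTRL. The sums of both lists were highest in the CTRL libraries, without overlap, but single markers differed. Most of the B cell sum in CTRL was Cd79b, at 11.9 TPM. Of the 3 B cell markers tested, 2 were lower and 1 higher than in CTRL, both in OVA and in OVA/Citra. The higher one was Ebf1, at 1.45 TPM in OVA/Citra, 1.099 TPM in OVA and 0.142 TPM in CTRL. Of 4 CD4 and regulatory T cell markers tested, 3 were lower in OVA/Citra than in CTRL. Ikzf4 did not pass that test (limma adjusted p = 0.844). Myeloid markers summed to 17.8 to 25.6 TPM in OVA/Citra, 23.9 to 29.3 TPM in OVA and 12.1 to 14.6 TPM in CTRL. Erythroid and platelet markers summed to at most 13.1 TPM in any library. The part of these shifts in the results on E2F genes was not tested. As the samples are bulk RNA, fewer dividing cells and less RNA per cell cannot be told apart.

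The levels, in TPM, which counts transcripts of a gene per fixed total in the library and corrects for gene length, put E2f4 far above the other members in every group. It averaged 198 ± 12.4 TPM in OVA/Citra, 240 ± 14.2 TPM in OVA and 189 ± 5.50 TPM in CTRL (SD, n = 3 each). In OVA libraries the next were Rbl2 at 80.1 ± 7.9998 TPM and E2f1 at 23.5 ± 1.86 TPM, and E2f7 was the lowest at 2.58 ± 0.311 TPM. In CTRL libraries the second place went to E2f2 at 97.0 ± 4.21 TPM, followed by Rbl2, E2f8 and E2f1, whose means of 42.96, 42.6 and 42.5 TPM lay within their spread.

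**Figure D1:**
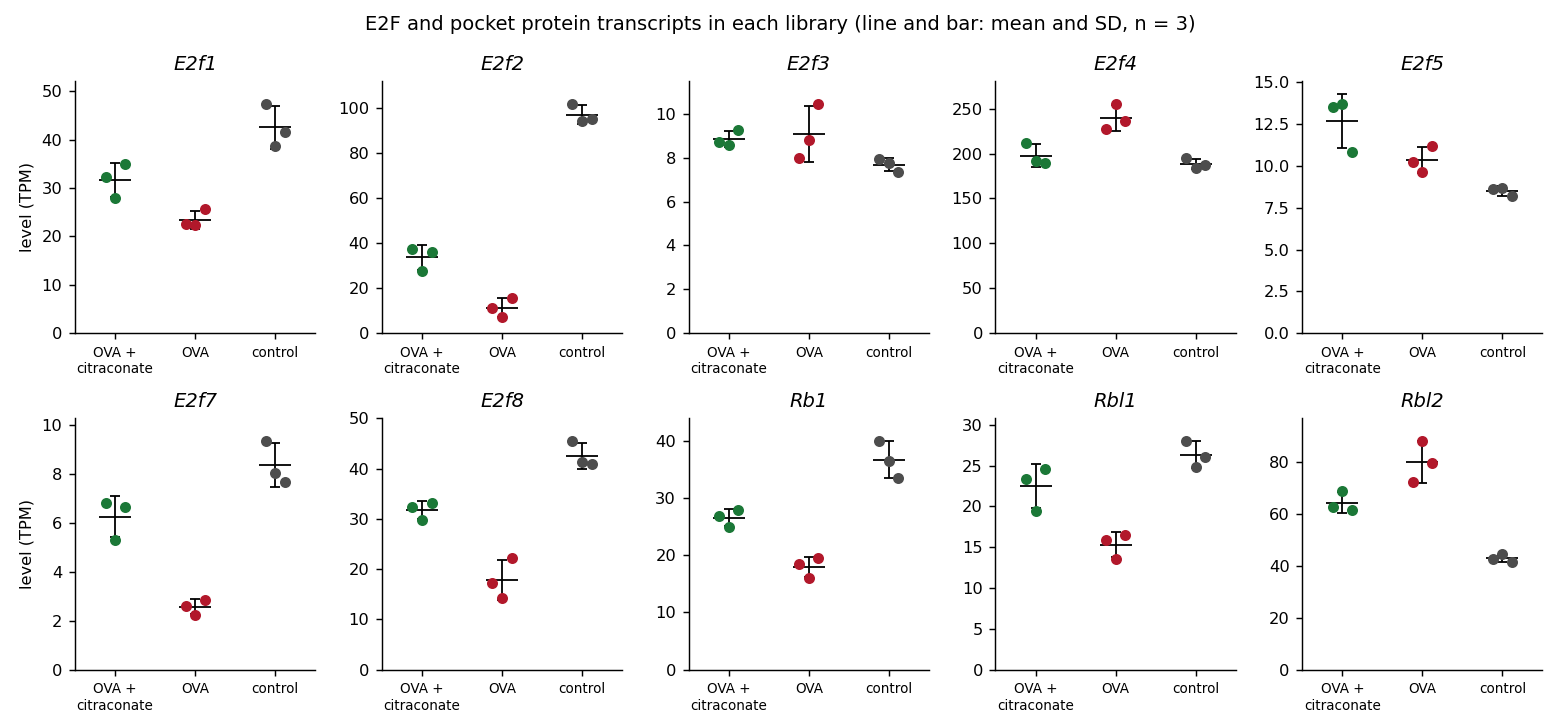
Level in TPM (vertical axis, from 0) of the 10 genes in each library, with OVA plus citraconate, OVA and control from left to right in each panel; points are libraries, and the line and bar give mean and SD (n = 3). E2f2, E2f7, E2f8, E2f1, Rb1 and Rbl1 are lowest in OVA libraries and highest in control libraries, while Rbl2 and E2f4 are highest in OVA libraries.

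The comparison of OVA with CTRL asks what the peptide did to the family. With OVA the activators E2f1 and E2f2, the atypical E2f7 and E2f8 and the pocket protein genes Rb1 and Rbl1 fell, whereas E2f4, E2f5 and Rbl2 rose. Of the 10 members 9 were called, against 71.9% of the 11971 genes tested, so that the count alone says little. By direction, 6 fell (39.8% of all genes did) and 3 rose (32.1%). The libraries of the 2 groups did not overlap in any of the 10 members, 4 higher and 6 lower with OVA, against 75.0% of all genes (33.7% higher and 41.3% lower). The median log2 difference was -0.79 over the members and -0.08 over all genes. The log2 differences of this comparison are given as fitted, without subtraction of the median of all genes. Over all genes 3837 calls were higher and 4765 lower. Median of ratios scaling gave 4406 higher and 4288 lower, and leaving granzymes out of the total 4521 higher and 4125 lower. A call means an adjusted p under 0.05 in limma, fitted on log2(TPM + 1) over all 9 libraries with Benjamini-Hochberg adjustment over all genes tested.

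E2f2 was at 11.3, 7.03 and 15.4 TPM in OVA libraries, against 102, 94.2 and 94.97 TPM in CTRL libraries. Every OVA library lay far below every CTRL library, and the means differed 8.62-fold, the largest change of any member. The log2 difference was -3.06 ± 0.215 (SE; limma adjusted p = 8.21e-07), and 86 of the 11971 genes had a lower one. E2f1, the activator also tied to T cell apoptosis, was at 22.5, 22.3 and 25.6 TPM in OVA libraries, against 47.4, 38.6 and 41.6 TPM in CTRL libraries. Its groups did not overlap, but its fall was much smaller (log2 -0.83 ± 0.101, adjusted p = 3.64e-05). E2f3 was at 7.99, 8.82 and 10.46 TPM in OVA libraries and 7.93, 7.76 and 7.37 TPM in CTRL libraries, and did not pass the test (log2 0.21, 95% interval -0.01 to 0.43, adjusted p = 0.0834). It was called higher with median of ratios scaling (log2 0.29, adjusted p = 0.0130), with granzymes left out of the total (0.31), with recovered reads (0.28) and without OVA replicate 1 (0.29). The gene-level table does not separate the products of its upstream and downstream starts, known as E2F3a and E2F3b.

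The atypical repressors fell together. E2f7 was at 2.60, 2.25 and 2.87 TPM in OVA libraries, against 9.38, 8.06 and 7.67 TPM in CTRL libraries. E2f8 was at 17.3, 14.3 and 22.2 TPM in OVA libraries, against 45.6, 41.3 and 40.9 TPM in CTRL libraries. In neither gene did the groups overlap, and the log2 differences were -1.39 ± 0.123 for E2f7 (adjusted p = 3.80e-06) and -1.22 ± 0.128 for E2f8 (adjusted p = 1.24e-05). The repressors that work with pocket proteins went the other way. E2f4 was at 228, 255 and 236 TPM in OVA libraries, against 195, 184 and 187 TPM in CTRL libraries, a rise of 0.34 ± 0.0600 on the log2 scale (adjusted p = 4.62e-04). E2f5 was at 10.2, 9.63 and 11.2 TPM in OVA libraries, against 8.63, 8.70 and 8.18 TPM in CTRL libraries. Its rise was small and passed narrowly (log2 0.25, adjusted p = 0.0434), and it was lost under 9 of 17 alternatives, among them leaving out OVA replicate 1 or 3, OVA/Citra replicate 1 or any 1 CTRL library (adjusted p = 0.0510 to 0.134).

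Among the pocket proteins the changes ran in opposite directions. Rb1, the retinoblastoma gene, was at 18.5, 16.1 and 19.4 TPM in OVA libraries, against 40.0, 36.5 and 33.5 TPM in CTRL libraries. Rbl1, which is itself read in S phase, was at 15.9, 13.6 and 16.4 TPM in OVA libraries, against 28.1, 24.8 and 26.1 TPM in CTRL libraries. Both were lower in every OVA library, with log2 differences of -0.99 ± 0.0897 for Rb1 (adjusted p = 4.53e-06) and -0.75 ± 0.102 for Rbl1 (adjusted p = 8.36e-05). Rbl2, the p130 gene of non-dividing cells, was at 72.3, 88.3 and 79.6 TPM in OVA libraries, against 42.7, 44.5 and 41.7 TPM in CTRL libraries. It was higher in every OVA library, by 0.88 ± 0.0764 on the log2 scale (adjusted p = 3.39e-06).

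Parts of some transcripts are shared with genes on the opposite strand in GENCODE M21 (GRCm38), and whether counting used strand is not given. Exons of Rcbtb2 cover 8.11% of the exon bases of Rb1 and exons of Lpar6 6.78%, while those of Aktip cover 9.17% of Rbl2 and those of the predicted gene Gm45464 11.8%. Exons of the predicted gene Gm2788 cover 11.2% of E2f8. E2f5 and E2f7 share 1.46% and 0.955% of their exon bases with opposite genes. Gm2788 averaged 0.105 TPM in OVA/Citra, 0.0330 TPM in OVA and 0.144 TPM in CTRL, and Gm45464 was not analysed here. Aktip averaged 8.22 TPM in OVA/Citra, 7.499 TPM in OVA and 6.62 TPM in CTRL, and Lpar6 averaged 1.77 ± 0.0204 TPM in OVA/Citra, 1.49 ± 0.0595 TPM in OVA and 1.58 ± 0.392 TPM in CTRL. Rcbtb2 averaged 1.81 TPM in OVA/Citra, 3.68 TPM in OVA and 9.91 TPM in CTRL. The mean of Rcbtb2 was thus lower in OVA than in CTRL, as that of Rb1 was, but lower in OVA/Citra than in OVA, where that of Rb1 was higher. To which gene of a pair the reads from shared stretches were assigned cannot be told here.

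**Figure D2:**
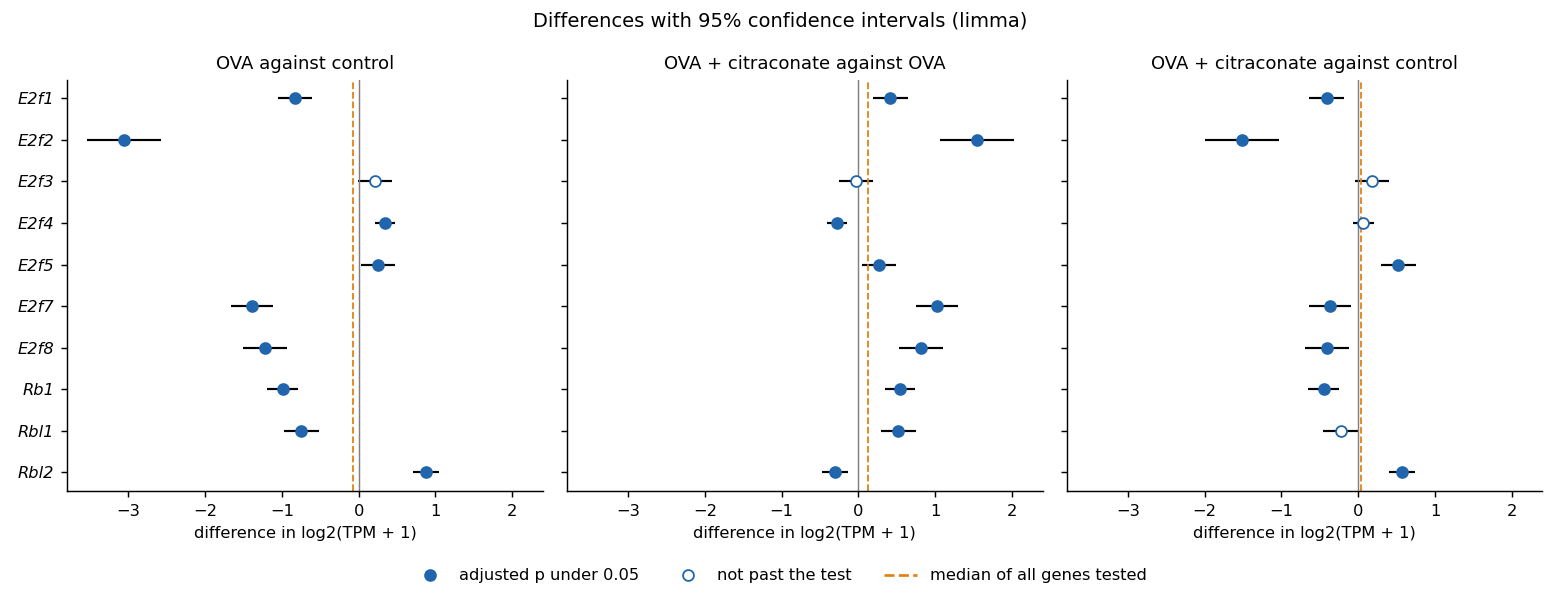
Difference in log2(TPM + 1) of each gene with its 95% confidence interval from limma (horizontal axis), with 1 panel per comparison (OVA against control, citraconate with OVA against OVA, and citraconate with OVA against control); filled points have an adjusted p under 0.05 and the dashed line is the median of all genes tested. E2f2 shows the largest difference in each panel, -3.06, 1.55 and -1.51 before any median is subtracted.

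The comparison of OVA/Citra with OVA asks what citraconate did in cells given the peptide. E2f1, E2f2, E2f7, E2f8, Rb1 and Rbl1 were higher with citraconate, and E2f4 and Rbl2 were lower. E2f5 was called higher too, but not firmly. In all 7 members rose, against 37.8% of all genes, and 2 fell, against 21.2%. The 9 calls stand beside 59.0% of all genes called. The groups did not overlap in 8 members, 6 higher and 2 lower with citraconate, against 66.1% of all genes (41.9% higher and 24.2% lower). The median log2 difference over all genes was 0.12, and scaling by the median of ratios took it to 0.00176 and moved the split of all calls to 3482 higher and 3589 lower, against 4522 higher and 2543 lower without it. With granzymes left out of the total the split was 3925 higher and 3041 lower. The log2 differences of this comparison are therefore given after subtraction of that median, while the tests are on the values before it. The directions of all members called were the same with that scaling.

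E2f2 was at 37.4, 27.4 and 36.1 TPM in OVA/Citra libraries, against 11.3, 7.03 and 15.4 TPM in OVA libraries. The groups were well apart, with a relative log2 difference of 1.42 ± 0.215 (SE; limma adjusted p = 1.95e-04), yet its level stayed far under the CTRL libraries. E2f1 was at 32.3, 28.0 and 34.96 TPM in OVA/Citra libraries, all above the OVA libraries (relative log2 0.29, adjusted p = 0.00515). E2f3 was at 8.72, 8.58 and 9.26 TPM in OVA/Citra libraries, inside the range of the OVA libraries, and did not pass the test (relative log2 -0.15, adjusted p = 0.825). The 95% interval of its difference before subtraction ran from -0.25 to 0.19.

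E2f7 had the second largest rise, to 6.82, 5.31 and 6.68 TPM in OVA/Citra libraries, against the 2.25 to 2.87 TPM of OVA libraries (relative log2 0.90 ± 0.123, adjusted p = 8.57e-05). E2f8 was at 32.4, 29.8 and 33.1 TPM in OVA/Citra libraries, above all OVA libraries (relative log2 0.69 ± 0.128, adjusted p = 4.12e-04). E2f4 was at 212, 192 and 190 TPM in OVA/Citra libraries, below all OVA libraries (relative log2 -0.40 ± 0.0600, adjusted p = 0.00281). E2f5 was at 13.5, 13.7 and 10.8 TPM in OVA/Citra libraries, and the third of these lay within the OVA range of 9.63 to 11.2 TPM. Its call (relative log2 0.14, adjusted p = 0.0434) was lost under 13 of 17 alternatives, among them the median of ratios scaling (adjusted p = 0.232) and leaving out OVA replicate 1 or 2, OVA/Citra replicate 1 or 2 or any 1 CTRL library (0.0539 to 0.139).

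The pocket protein genes kept their opposite signs. Rb1 was at 26.9, 24.9 and 27.9 TPM in OVA/Citra libraries, above all OVA libraries (relative log2 0.42 ± 0.0897, adjusted p = 5.66e-04). Rbl1 was at 23.3, 19.4 and 24.6 TPM, also above all OVA libraries (relative log2 0.40 ± 0.102, adjusted p = 0.00155). Rbl2 was at 62.8, 69.0 and 61.4 TPM, below all OVA libraries (relative log2 -0.43 ± 0.0764, adjusted p = 0.00610).

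The comparison of OVA/Citra with CTRL shares its samples with the other comparisons and gives the distance left to cells without peptide. Of the 10 members 7 were called, against 59.4% of all genes: E2f5 and Rbl2 were higher (33.1% of all genes were) and E2f1, E2f2, E2f7, E2f8 and Rb1 lower (26.3%). The groups did not overlap in 9 members, 3 higher and 6 lower in OVA/Citra, against 67.4% of all genes (37.3% higher and 30.1% lower). E2f2 was still 2.88-fold lower than in CTRL (log2 -1.51 ± 0.215, limma adjusted p = 1.89e-04), and Rb1 differed by -0.45 ± 0.0897 (adjusted p = 0.00167) and E2f1 by -0.41 ± 0.101 (adjusted p = 0.00536). Rbl2 remained higher, by 0.57 ± 0.0764 (adjusted p = 1.24e-04). E2f5, at 12.7 ± 1.61 TPM in OVA/Citra and 8.50 ± 0.283 TPM in CTRL, was higher by 0.52 ± 0.101 (adjusted p = 0.00140), a call that held under all 17 alternatives. The falls of E2f7 (log2 -0.37, adjusted p = 0.0252) and E2f8 (log2 -0.41, adjusted p = 0.0185) were lost without CTRL replicate 1 (adjusted p = 0.0956 and 0.0662) or OVA/Citra replicate 2 (0.0922 and 0.0600), which takes the members called lower to 3. E2f4 did not differ past the test (log2 0.07, 95% interval -0.07 to 0.20, adjusted p = 0.358). Nor did Rbl1 (log2 -0.23, interval -0.45 to 0.00, adjusted p = 0.0809), which was called lower with median of ratios scaling (adjusted p = 0.0287).

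Summed by role, the family shifted in make-up more than in total. The E2F transcripts of the 7 members summed to 323 ± 19.6 TPM in OVA/Citra, 314 ± 13.2 TPM in OVA and 395 ± 17.7 TPM in CTRL. Within them the activators E2f1, E2f2 and E2f3 made up 21.0% to 25.0% in OVA/Citra, 11.9% to 15.9% in OVA and 36.7% to 37.8% in CTRL. E2f4 alone made up 59.2% to 62.9% in OVA/Citra, 72.9% to 79.9% in OVA and 46.9% to 48.2% in CTRL. No 2 groups overlapped in either share, and a share within a library does not depend on how the library is scaled. A sum does depend on it. The summed E2F level was 304 to 343 TPM in OVA/Citra libraries and 299 to 324 TPM in OVA libraries. In CTRL libraries it was 383 to 415 TPM, above every library given peptide. The ratio of E2f2 to E2f1 was 0.981 to 1.16 in OVA/Citra libraries, 0.315 to 0.602 in OVA libraries and 2.15 to 2.44 in CTRL libraries.

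The pocket protein transcripts came to nearly the same sum in all groups, 113 ± 0.461 TPM in OVA/Citra, 113 ± 5.87 TPM in OVA and 106 ± 4.76 TPM in CTRL. The sum was 113.04 to 113.96 TPM in OVA/Citra libraries, above the 101.3 to 110.8 TPM of CTRL libraries. What the pocket protein transcripts were made of differed. Rbl2 supplied 53.9% to 60.9% of them in OVA/Citra, 67.7% to 74.9% in OVA and 38.6% to 42.0% in CTRL. The ratio of Rbl2 to Rbl1, p130 over p107, was 2.70, 3.55 and 2.496 in OVA/Citra libraries, 4.54, 6.49 and 4.84 in OVA libraries and 1.52, 1.79 and 1.60 in CTRL libraries. The groups did not overlap in this ratio either. These sums and ratios are descriptions, given without a test.

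**Figure D3:**
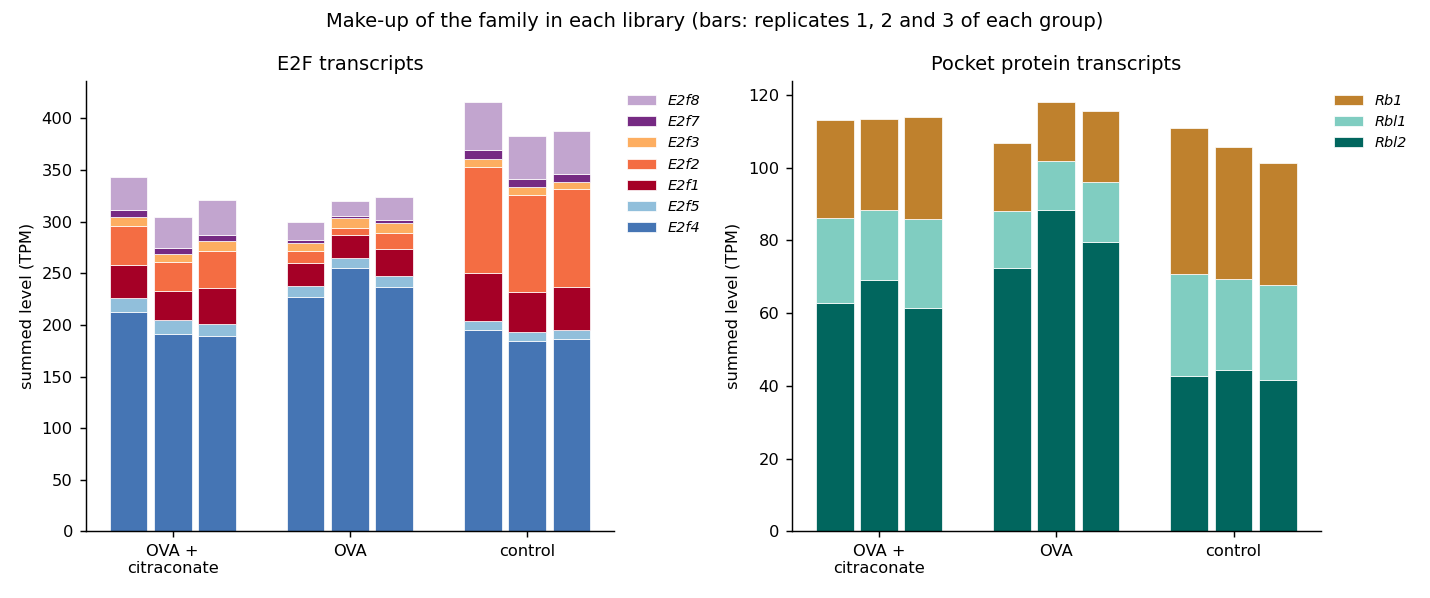
Summed level in TPM (vertical axis, from 0) of the E2F genes and of the pocket protein genes, 1 bar per library, with OVA plus citraconate, OVA and control from left to right. The E2f4 part is largest in OVA bars and the E2f2 part in control bars, while the pocket protein bars differ little in height but not in their Rbl2 part, 67.7% to 74.9% in OVA and 38.6% to 42.0% in control.

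E2F proteins need partners, and these moved as well. Tfdp1, the main DP subunit, was higher in OVA/Citra (176 ± 9.15 TPM) than in OVA (128 ± 10.3 TPM; relative log2 0.33, limma adjusted p = 2.09e-04), with CTRL at 145 ± 3.31 TPM. Its fall with OVA (log2 -0.18, adjusted p = 0.0275) was lost under 8 alternatives, among them median of ratios scaling (adjusted p = 0.140) and leaving out CTRL replicate 1 or 2 or OVA replicate 1 or 2. Tfdp2 averaged 16.1 ± 1.84 TPM in OVA/Citra, 4.96 ± 1.56 TPM in OVA and 9.50 ± 0.626 TPM in CTRL. It was lower with OVA than in CTRL (log2 -0.85, adjusted p = 0.00112) and higher in OVA/Citra than in OVA (relative log2 1.42, adjusted p = 5.23e-05) and than in CTRL (log2 0.70, adjusted p = 0.00522). E2f6, the polycomb-linked repressor outside the 10 genes, averaged 12.6 ± 0.699 TPM in OVA/Citra, 17.3 ± 0.683 TPM in OVA and 17.8 ± 0.683 TPM in CTRL. It did not pass the test between OVA and CTRL (adjusted p = 0.607) but was lower in OVA/Citra than in OVA (relative log2 -0.55, adjusted p = 5.43e-04).

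The MuvB core, which joins p130 and E2F4 in DREAM and later B-MYB and FOXM1 as an activator, was listed with those activators. Of the 8 genes 7 fell with OVA (39.8% of all genes did) and 0 rose (32.1%), with a median log2 of -0.75. Foxm1 had the lowest adjusted p of them, at 20.6 ± 5.19 TPM in OVA and 75.7 ± 4.85 TPM in CTRL (adjusted p = 3.42e-06), followed by Lin54, the DNA-binding subunit that reads the CHR, at 7.07 ± 0.719 TPM in OVA and 12.7 ± 0.497 TPM in CTRL (adjusted p = 1.86e-05). With citraconate 6 of the 8 rose (37.8% of all genes did) and 0 fell (21.2%). Foxm1 was at 52.9 ± 8.01 TPM in OVA/Citra (relative log2 1.21 against OVA, limma adjusted p = 8.66e-05).

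Of the 10 cyclin and kinase genes acting on pocket proteins, 6 fell with OVA and 3 rose. Of all genes tested, 39.8% fell and 32.1% rose with OVA, while 37.8% rose and 21.2% fell with citraconate. Ccnd3, the cyclin D3 partner of CDK4 and CDK6 in lymphocytes, was at 44.3 ± 6.10 TPM in OVA and 163 ± 8.02 TPM in CTRL (adjusted p = 5.14e-08), whereas Ccnd2 was at 188 ± 8.56 TPM in OVA and 115 ± 4.21 TPM in CTRL (adjusted p = 5.25e-05). With citraconate 6 rose and 2 fell, and Cdk2 was at 47.8 ± 3.47 TPM in OVA/Citra and 22.8 ± 5.02 TPM in OVA (relative log2 0.93, adjusted p = 1.22e-04). The CDK inhibitors split too. Of 6 tested of 7, 3 fell with OVA (Cdkn2d, Cdkn1b and Cdkn2c) and 2 rose (Cdkn1a and Cdkn2b). Cdkn1b, which encodes p27, was at 9.54 ± 1.73 TPM in OVA and 35.3 ± 1.09 TPM in CTRL (adjusted p = 1.44e-06), and Cdkn1a, which encodes p21, at 284 ± 29.2 TPM in OVA and 152 ± 3.59 TPM in CTRL (adjusted p = 3.68e-05). With citraconate 3 rose and 2 fell, the second count being 1 without OVA replicate 1 or 2 or OVA/Citra replicate 1. Cdkn1b was then at 21.7 ± 3.75 TPM in OVA/Citra (relative log2 0.98 against OVA, adjusted p = 1.06e-04).

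Genes that E2F proteins are known to drive fell with OVA almost throughout. Of 47 G1/S genes, 43 fell (39.8% of all genes did), 2 rose (32.1%) and 2 were not called. Their median log2 difference was -0.84, against -0.08 for all genes. Cdt1, the replication licensing factor, was at 31.3 ± 5.09 TPM in OVA and 99.2 ± 6.88 TPM in CTRL (adjusted p = 2.04e-06), and Pcna, the polymerase clamp, at 277 ± 28.0 TPM in OVA and 579 ± 6.77 TPM in CTRL (adjusted p = 2.06e-06). The 2 that rose were Ccne1 (cyclin E1) and Orc1 (an origin recognition subunit), named after their values were seen. That count was 0 without CTRL replicate 2 or 3 or OVA replicate 3, and 1 without CTRL replicate 1 or OVA replicate 1 or 2. With citraconate 35 of the 47 rose (37.8% of all genes did), 1 fell (21.2%) and 11 were not called. The count of 1 was 0 without OVA replicate 2 or 3 or OVA/Citra replicate 1 or 2. Msh6, a mismatch repair gene, was at 83.6 ± 5.42 TPM in OVA/Citra and 43.2 ± 5.78 TPM in OVA (relative log2 0.82, adjusted p = 3.49e-05). The 30 G2/M genes, targets of DREAM, B-MYB and FOXM1, all fell with OVA (median log2 -1.27) and all rose with citraconate. Cdc25b, a phosphatase that activates CDK1, was at 22.2 ± 5.55 TPM in OVA and 238 ± 14.1 TPM in CTRL (adjusted p = 9.35e-08). Top2a was at 194 ± 18.1 TPM in OVA/Citra and 101 ± 14.3 TPM in OVA (relative log2 0.82, adjusted p = 5.69e-05). Against CTRL, the OVA/Citra libraries had 24 of 47 G1/S genes and 24 of 30 G2/M genes lower (26.3% of all genes were).

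The remaining lists were ubiquitin ligase parts, corepressors, the E2F6 complex and apoptosis genes. Of all genes tested, 39.8% fell and 32.1% rose with OVA, while 37.8% rose and 21.2% fell with citraconate. Counts near these shares say little about a list. Of 8 ubiquitin ligase parts 7 fell with OVA and 1 rose, and with citraconate 6 rose and 0 fell. Fbxo5, which encodes EMI1, the inhibitor of APC/C and an E2F target, was at 56.1 ± 8.74 TPM in OVA/Citra, 25.2 ± 5.49 TPM in OVA and 89.0 ± 6.17 TPM in CTRL (adjusted p = 1.90e-04 for OVA/Citra against OVA and 3.45e-06 for OVA against CTRL). Of 17 corepressor and phosphatase genes 8 fell and 2 rose with OVA, and 9 rose and 2 fell with citraconate. The last count was 1 when any 1 library other than CTRL replicate 3 or OVA replicate 3 was left out. Sin3a was among those that fell, at 24.7 ± 2.32 TPM in OVA and 48.5 ± 3.33 TPM in CTRL (adjusted p = 2.32e-06). In the polycomb complex of E2F6, 3 of 10 genes rose and 2 fell with OVA, and 3 rose and 2 fell with citraconate. The first count was 5 without OVA/Citra replicate 2. Wdr5 fell with citraconate, at 42.2 ± 3.73 TPM in OVA/Citra and 60.3 ± 1.19 TPM in OVA (adjusted p = 1.28e-04). The 9 apoptosis genes described as E2F1 targets had 3 higher and 2 lower with OVA, and 2 higher and 2 lower with citraconate. Among them Bcl2l11, which encodes the killer protein BIM, was at 41.9 ± 4.47 TPM in OVA/Citra, 6.54 ± 1.23 TPM in OVA and 6.73 ± 0.603 TPM in CTRL. It was higher in OVA/Citra than in OVA (relative log2 2.39, limma adjusted p = 2.99e-06). Between OVA and CTRL, Bcl2l11 did not pass the test (log2 -0.05, adjusted p = 0.756). Whether E2F1 had a part in these levels was not tested.

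**Figure D4:**
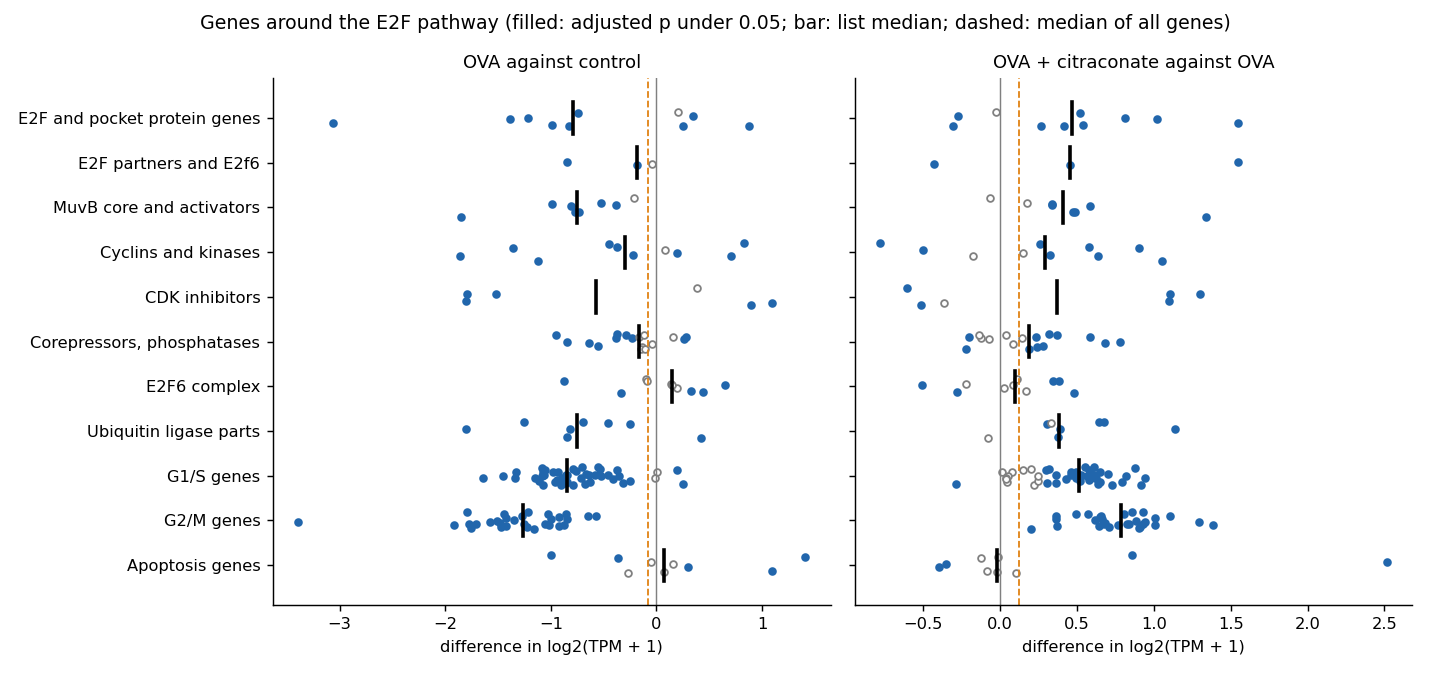
Difference in log2(TPM + 1) of each tested gene (horizontal axis) in the E2F and pocket protein family and in 10 lists of the pathway, for OVA against control and OVA plus citraconate against OVA; filled points have an adjusted p under 0.05, the black bar is the list median and the dashed line the median of all genes. The 30 G2/M genes lie left of 0 with OVA and right of it with citraconate, while the apoptosis genes lie on both sides.

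The genes whose profile over the 9 libraries was most like that of a member were found as the smallest root mean square difference in log2(TPM + 1) after centring each gene, among 9148 genes. For E2f1 they were Fzr1 (0.0463), an activator of APC/C, Haus4 (0.0469), a subunit of the spindle augmin complex, and Lmbr1l (0.0548). For E2f8 they were Ckap2l (0.0571), a spindle protein gene, Tmpo (0.0576), a nuclear lamina gene, and Dlgap5 (0.0618), a spindle assembly gene. For Rbl2 they were Stx7 (0.0471), an endosomal syntaxin, Sec31a (0.0560), a coat protein of vesicles leaving the endoplasmic reticulum, and Il2rb (0.0563), a chain of the interleukin-2 and interleukin-15 receptors. Within the family E2f1 was nearest to Rbl1 (0.0957) and Rb1 (0.105), and E2f7 to E2f8 (0.134).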

How the data were processed

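RNA-seq was made from 9 libraries of mouse CD8+ T cells, 3 per group. The authors deposited 1 table of TPM with genes named by symbol. Although the table is named for FPKM, all columns have the same total, as TPM values do, and the deposited values were therefore read as TPM. Salmon, the build GRCm39 and Trim Galore 0.5.0 stand in the submitters' processing notes, and no annotation is named there. Genes averaging 1 TPM or more in 1 group at least entered the tests (11971, all 10 members among them). All 9 libraries were fitted on log2(TPM + 1) in limma 3.58.1 (R 4.3.3; lmFit, eBayes with a trend). P-values are two-sided and adjusted by Benjamini-Hochberg over the genes tested. Fold changes on this scale understate those of low genes. Whole reads were worked back for 16734 of 16734 genes above 0 in at least 2 libraries (tolerance 0.001 reads or 1.2e-07 of the count). The smallest whole numbers that fitted were kept, so the reads of a gene could be understated by a common factor. Genes above 0 in few libraries are easily fitted, so full recovery is no check on them. The recovered reads serve for depth and, with voom weights, as an alternative. The steps were tested on simulated data. The members, the 17 lists (10 of the pathway, 7 of cell type markers; 206 of 207 symbols found, 3 under older names) and the naming rule were chosen with earlier results of these data known. The rule named every member and, of each pathway list, up to 4 genes with the smallest adjusted p for OVA against CTRL and up to 2 for OVA/Citra against OVA, of which some are printed; 1 withheld item is not reported here. Alternatives numbered 17.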

Additional observations from a re-analysis of the deposited data

How the results depend on the processing

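Of 510 differences of members under the 17 alternatives, 478 kept direction and side of the threshold, 26 lost a call, 6 gained one and 0 reversed. The calls that changed were those of E2f3, E2f5, E2f7, E2f8 and Rbl1 given in the report; the cause was not tested. Members called ranged from 8 to 10 for OVA against CTRL, 8 to 9 for OVA/Citra against OVA and 5 to 8 for OVA/Citra against CTRL. Leaving out 1 library gave 8 to 9, 8 to 9 and 5 to 7. With the replicate number as a block in the fit the counts were 8, 8 and 8 (main 9, 9 and 7); E2f5 was then not called for OVA against CTRL or OVA/Citra against OVA, and Rbl1 was called for OVA/Citra against CTRL. The labels do not say whether same-numbered libraries were paired. Their deviations from group means correlated at -0.0121 to 0.304, not all over 0.1, and those of differently numbered libraries at -0.254 to 0.168. The highest value, 0.304, was that of replicate 2 of OVA/Citra with replicate 2 of OVA. Whether the numbers mark a shared origin was not tested. Of 1020 list counts under alternatives, 56 moved by over 1.5 times, each from a main count of 5 or fewer. The E2F6 complex went to 5 higher with OVA under median of ratios scaling and to 6 with granzymes left out (main 3). Corepressors lower with citraconate went to 5 under that scaling (main 2) and to 1 with no filter on low values. The 2 G1/S genes called higher with OVA became 0 without CTRL replicate 2 or 3 or OVA replicate 3. With 3 libraries a group, small differences such as those of E2f3 and E2f5 are at the limit of the test.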

Other observations

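Replicate 2 was the lowest library of both peptide groups for 6 members (E2f1, E2f2, E2f7, E2f8, Rb1 and Rbl1), while E2f5 was highest in it in OVA/Citra and lowest in it in OVA. In OVA/Citra it was the lowest library for 7 of the 10 members (E2f1, E2f2, E2f3, E2f7, E2f8, Rb1 and Rbl1) and the highest for E2f5 and Rbl2. In OVA it was the lowest for 7 members (E2f1, E2f2, E2f5, E2f7, E2f8, Rb1 and Rbl1) and the highest for E2f4 and Rbl2. Its ratio of Rbl2 to Rbl1 was 3.55 in OVA/Citra, where the other libraries had 2.70 and 2.496, and 6.49 in OVA, where they had 4.54 and 4.84. The summed T cell markers of these libraries were also the lowest of their groups, 4998 TPM in OVA/Citra and 1716 TPM in OVA, and the summed natural killer markers the highest, 878 TPM in OVA/Citra and 2748 TPM in OVA. The part of these marker shifts in the family's values was not tested.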
